A study of Mus musculus with 6 samples.

Results

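The 7 genes described here are the metallothionein and zinc control genes Mt1, Mt2, Mtf1, Slc30a1, Slc39a1, Slc39a6 and Slc39a10, out of 55414 genes in the deposited table. They were chosen by the readout itself, on the value of Mt1 being higher in VC than in control, so every VC against control value of these 7 genes is a description. Where the limma fit of the whole table is quoted for a member, it gives that member's place in the table and is no test of it. RNA sequencing was done on TM4 cells, a line derived from mouse testis that is used as a model of Sertoli cells, in 3 control libraries and 3 libraries labelled VC. All 6 libraries are of this 1 line and carry no other labelled treatment. The labels disagree on the agent: valine is named in a characteristic of the samples, and vitamin C in the title of the study. The libraries are therefore named VC, as labelled. No dose or exposure time is given in the sources used here. Nothing in the labels says that replicates were separate cultures, so the spread between libraries may be technical.

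Zinc is held in a narrow range inside cells because free zinc ions are toxic while many enzymes and transcription factors need the metal. Metallothioneins are small cysteine-rich proteins that bind zinc and copper and buffer them. MTF1 is a zinc-finger transcription factor that senses zinc and switches on metallothionein genes and the exporter gene Slc30a1 through short promoter motifs called metal response elements. Transporters of the ZnT family (Slc30a genes) move zinc out of the cytosol, across the cell surface or into organelles, and those of the ZIP family (Slc39a genes) move it into the cytosol. In the testis zinc supports germ cell development.

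The promoters of both metallothioneins and of Slc30a1 are shown because these 3 genes are the textbook targets of MTF1 and their RNA levels differed widely. Each window holds 300 bases, from 250 before to 50 after the transcription start that RefSeq lists on build GRCm38.p6, written 5′ to 3′ on the gene's strand. Capitals mark the metal response element core, searched on both strands as TGCACNC or TGCGCNC. The windows are chr8:94178839-94179138 for Mt1, chr8:94172368-94172667 for Mt2 and chr1:191906531-191906830 for Slc30a1, all on the plus strand.
Mt1: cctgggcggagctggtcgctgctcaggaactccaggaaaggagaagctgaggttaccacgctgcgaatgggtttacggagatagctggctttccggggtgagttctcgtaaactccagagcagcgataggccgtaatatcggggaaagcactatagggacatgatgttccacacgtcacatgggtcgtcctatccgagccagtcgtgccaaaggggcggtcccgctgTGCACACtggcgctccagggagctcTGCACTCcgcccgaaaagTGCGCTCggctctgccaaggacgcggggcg
Mt2: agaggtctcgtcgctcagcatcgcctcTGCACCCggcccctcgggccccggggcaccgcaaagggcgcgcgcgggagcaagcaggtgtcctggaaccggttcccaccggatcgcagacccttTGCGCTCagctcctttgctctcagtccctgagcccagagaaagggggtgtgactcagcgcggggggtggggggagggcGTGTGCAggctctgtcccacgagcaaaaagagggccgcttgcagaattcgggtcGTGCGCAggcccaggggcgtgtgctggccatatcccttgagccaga
Slc30a1: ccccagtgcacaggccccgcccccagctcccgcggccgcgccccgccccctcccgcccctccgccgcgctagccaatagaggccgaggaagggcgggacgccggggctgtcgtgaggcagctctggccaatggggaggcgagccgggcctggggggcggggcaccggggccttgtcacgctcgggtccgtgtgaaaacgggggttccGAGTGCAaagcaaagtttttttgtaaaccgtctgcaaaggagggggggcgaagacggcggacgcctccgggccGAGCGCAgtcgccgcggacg
The Mt1 window held 3 cores, all on the gene's strand, at 23 to 17 bases before the start and at 2 to 8 and 20 to 26 bases after it, counting the start as 0. Mt2 had 4 cores, of which 2 lay on the opposite strand, and Slc30a1 had 2, both on the opposite strand. No 2 cores overlapped. These positions and counts depend on the start that RefSeq lists, and windows at other starts were not searched. The gene models used for exon lengths start elsewhere, at 94179082 for Mt1, 94172664 for Mt2 and 191906767 for Slc30a1. For Mt2 that is near the downstream end of the window. Of 32851 RefSeq promoter windows of this length, 25.7% held at least 1 core, 7.11% at least 2, 1.97% at least 3 and 0.517% at least 4. The windows of Mtf1, Slc39a1 and Slc39a10 (of which the table lists 2) held none, which says only that these letters are absent there. A match is a description of the sequence and shows no binding.

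**Figure D1:**
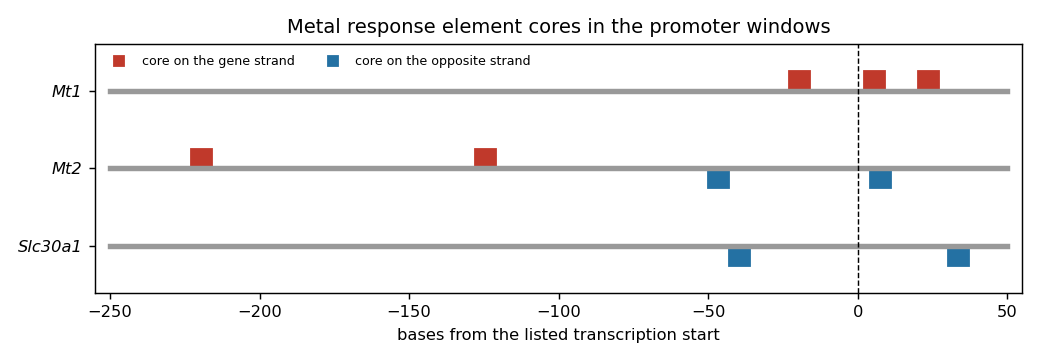
Metal response element cores in the promoter windows of Mt1, Mt2 and Slc30a1. The x axis gives bases from the listed start, red boxes above a line are cores on the gene's strand and blue boxes below it cores on the opposite strand; Mt1 has 3, Mt2 has 4 and Slc30a1 has 2.

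Values in the deposited table behave as TPM (transcript abundance per length, scaled to a fixed total) multiplied by 1 factor per library. They are therefore levels per length, and an order between genes rests on the exon length counted for each gene. That length was set against the spliced transcript only for Mt1 and Mt2. Multiplied by gene length the values came out as whole reads, with 20408338 to 22316045 reads per library. Control replicate 3 stood apart, with a chi-square per degree of freedom of 9.97 to 18 against the other libraries, where pairs without it gave 2.84 to 7.58. Of 15 Sertoli markers 8 passed the expression filter (at least 3 libraries at 1 or above), while the defining genes Wt1, Fshr and Dmrt1 were listed at 0 in every library. The summed level of the 15 ran from 1576 to 1643 in control and from 1520 to 1572 in VC. Of the other cell types, 1 of 6 Leydig, 0 of 6 germ cell, 2 of 5 macrophage and 1 of 5 endothelial markers passed the filter. For peritubular myoid cells it was 3 of 5, and the sum of the 5 was 608.6 to 667.9 in control and 391.6 to 401.6 in VC. Most of this sum is Acta2, which was called lower, at 588.9 to 645.6 in control and 378 to 386.5 in VC. Cnn1 also lay below control without a call, Tagln overlapped between groups, and Myh11 and Des did not pass the filter. The 13 mitochondrially encoded protein genes, which can track RNA quality, had a median log2 difference of -0.12 and summed to 99590 to 101600 in control and 89870 to 95920 in VC. The part of these shifts in the results below was not tested. In such bulk samples fewer cells of a type and less RNA per cell cannot be told apart.

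Mt1 was the most abundant of the 7 genes and the one with the largest difference among the 6 that passed the filter. Its level was 138, 135 and 144 in control replicates 1 to 3 and 188, 181 and 180 in the VC replicates. The 3 VC values lay above the 3 control values, with a gap between the groups wider than the range within either. The mean level was 139 ± 4.93 in control and 183 ± 4.44 in VC (SD, n = 3), which is 31.5% higher. On the log2(value + 1) scale the difference was 0.39 (SE 0.039) in limma, against a median of 0.01 over the 13972 genes tested. Between 1333 and 1921 reads per library lay behind these values.

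Mt1 ranked 897th by level among all genes and 481st from the top by the size of its log2 difference among those tested. The whole-table fit called 96 genes at an adjusted p under 0.05, or 0.687% of those tested, with Mt1 as the 1 member among them; this contrast chose the set, so nothing is read from that count. The difference stayed between 0.37 and 0.47 log2 units in the reported fit and 17 alternatives. Mt1 was outside the called genes in 7 of 15 refits of the table, namely with the replicate block, with no intensity trend, and when any library but control replicate 3 was left out. Without control replicate 3 limma called 82 genes in the whole table, and without any other single library it called 0 or 1. Genes of like exon length (613 to 1327 bases) had a median log2 difference of -0.04 and genes of like level a median of -0.07, both of opposite sign to that of Mt1.

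The level of Mt1 depends on the length assigned to it. Its gene model counts 1246 exon bases because it includes transcripts that keep an intron, while the spliced transcript has 549. Per base of the spliced transcript, an option tried after the data were seen, the level was 316 ± 11.2 in control and 415 ± 10.1 in VC (SD, n = 3). The ratio between groups is the same on both lengths. No stretch of 50 bases of the spliced Mt1 transcript occurred in a transcript of another gene, and 3 of its 525 stretches of 25 bases occurred in Mt3.

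Mt2, the partner that is usually induced together with Mt1, was almost unread in these data. It was listed at 0 in all 3 control libraries and in VC replicate 1, at 0.221 in VC replicate 2 and at 0.634 in VC replicate 3. These 2 values stand for 1 and 3 reads, and 0 reads allow a level of up to 0.615 to 0.659 (3 reads, counting error only). The groups overlap, the gene did not pass the filter, and no fold is given.

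Of the 588 exon bases of Mt2, 432 (73.5%) also lie in exons of the antisense gene Gm45774 on the opposite strand. Whether reads there were left out of the count cannot be told, so the Mt2 value is not taken as a plain level. Gm45774 itself was at 0.097 and 0.094 in control replicates 1 and 2 and at 0 elsewhere. Neither the strandedness of the libraries nor the treatment of reads that fall in 2 genes is given in the sources used here. Over the whole table, 144 of 180 protein-coding genes whose exon bases are all shared with another gene were at 0 in every library (80.0%), against 31.5% of the 15390 that share none. In the class that holds Mt2, with 50% to under 90% shared, it was 21.9% of 357, which is below the share among genes without overlap. The median level of that class was 0.285, against 0.228 for genes that share none. Mt1 shares none of its bases. The part of this overlap in the low Mt2 value was not tested. The other metallothioneins, Mt3 (a brain form) and Mt4 (an epithelial form), reached at most 0.452 and 0.632 in any library.

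**Figure D2:**
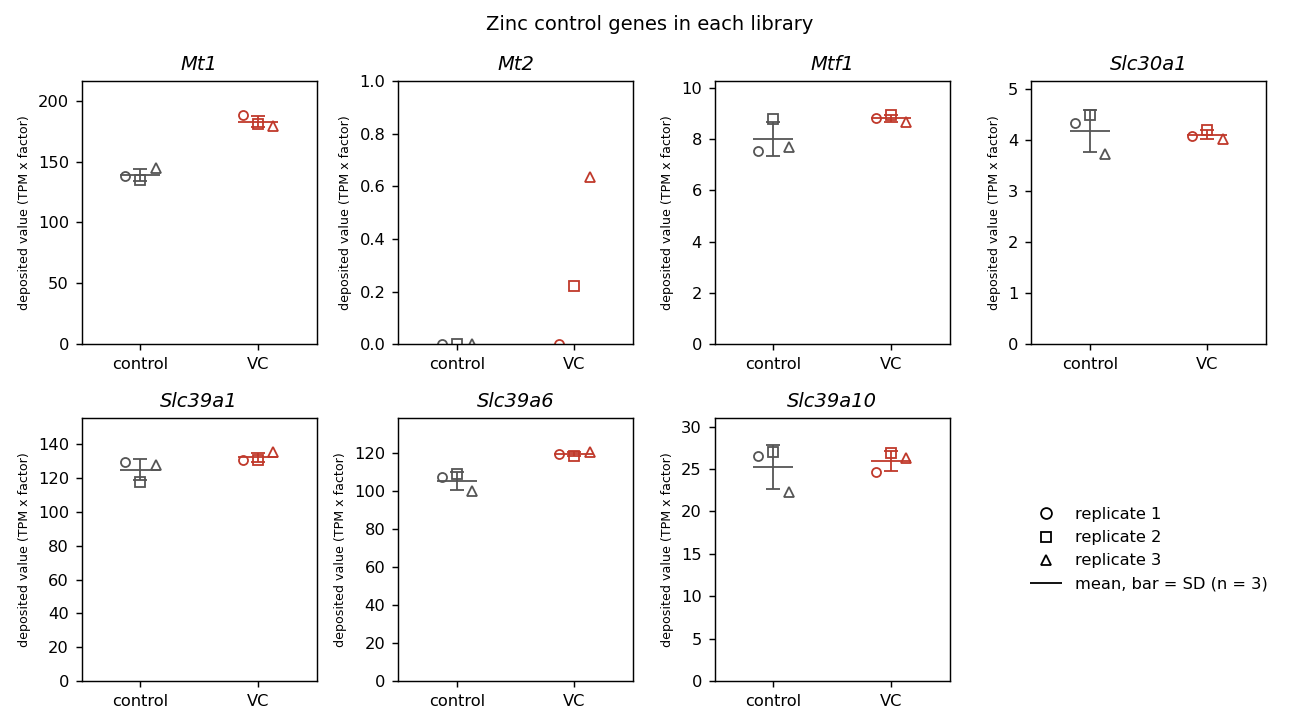
Level of each zinc control gene in each library, as the deposited value (TPM times a library factor); symbols mark the replicate, and the horizontal bar and whiskers give the mean and SD of 3 libraries (not drawn for Mt2). Axes start at 0 and differ between panels; the VC values of Mt1, Slc39a1 and Slc39a6 lie above the control values, and those of the other genes overlap.

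Mtf1, the zinc sensor itself, was expressed at a low level. It was 7.54, 8.77 and 7.71 in control and 8.81, 8.93 and 8.69 in VC. Control replicate 2 reached into the VC range, so the groups overlap, while the other control libraries lay below all VC libraries. The log2 difference was 0.13 (SE 0.072). Of its 8907 exon bases 8.10% are shared with another gene, 1110065P20Rik, on the opposite strand.

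Slc30a1, the exporter at the cell surface and the other classical MTF1 target, had the lowest level of the members that passed the filter. It was 4.33, 4.49 and 3.72 in control and 4.09, 4.21 and 4.03 in VC. All 3 VC values fell inside the control range. The log2 difference was -0.02 (SE 0.094), which took the opposite sign in 3 alternatives. Between 162 and 187 reads per library lay behind it.

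Slc39a1, the ZIP1 importer of the plasma membrane, stood next to Mt1 in level. It was 129, 118 and 128 in control and 131, 130 and 135 in VC. The VC values lay just above the highest control value. The log2 difference was 0.08 (SE 0.044).

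Slc39a6, the ZIP6 importer, had the largest difference of the members after Mt1. Its level was 107, 109 and 100 in control and 120, 118 and 121 in VC. The groups do not overlap, and the VC libraries lay closer together than the control libraries. The mean level was 105 ± 4.67 in control and 120 ± 1.08 in VC (SD, n = 3), or 13.4% higher, with a log2 difference of 0.18 (SE 0.040).

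Slc39a10, the ZIP10 importer, which forms complexes with ZIP6 and whose gene MTF1 is known to repress, was at 26.5, 27.0 and 22.3 in control and 24.7, 26.9 and 26.3 in VC. The groups overlap. The log2 difference was 0.04 (SE 0.080), and it was -0.04 without control replicate 3, the lowest library.

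Among the 7 genes the order of levels was Mt1, Slc39a1, Slc39a6, Slc39a10, Mtf1, Slc30a1 and Mt2 in both groups. No 2 neighbours in this order had overlapping ranges within a group. Of the 6 members that passed the filter, 3 had VC values all above control (Mt1, Slc39a1 and Slc39a6) and 0 had them all below. This held in either direction for 25.6% of all genes tested and is a description here. Over the 6 libraries, the log2 levels of Slc39a6, Slc39a1, Mtf1, Slc39a10 and Slc30a1 correlated with those of Mt1 at Pearson's r of 0.85, 0.72, 0.64, 0.06 and -0.26, points that share the libraries and the group difference.

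**Figure D3:**
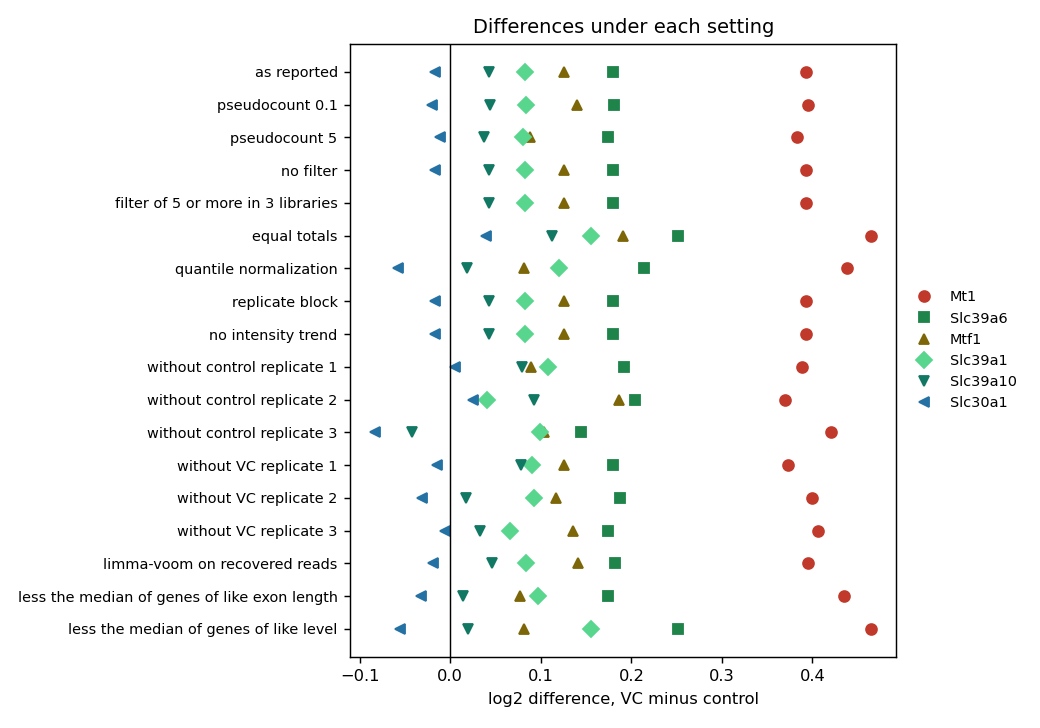
Log2 difference between VC and control (x axis) of the 6 zinc control genes that passed the filter, in the reported fit and under each alternative (rows). Mt1 lies between 0.37 and 0.47 in every row, and Slc30a1 and Slc39a10 lie on both sides of 0.

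The ZIP importer family has 14 genes, of which 10 passed the filter. All 10 had a log2 difference above 0, with a median of 0.08, where 7505 of the 13972 genes tested were above 0. None passed limma's threshold, 1 had an unadjusted p under 0.05 (17.2% of all genes tested did), and limma-voom on recovered reads called 1. Both of these counts are Slc39a6, a member. VC values lay above control in 3 of the 10, where 13.9% of genes tested did so, and below control in 0. Summed over the 10 genes, the level was 371, 364 and 361 in control and 389, 393 and 400 in VC, so the summed ranges do not overlap. Slc39a1 and Slc39a6 made up most of this sum. Slc39a11, an importer of the Golgi, went from 27.4 ± 1.71 to 29.9 ± 0.895 (limma adjusted p = 0.316). Slc39a13, also of the Golgi and known for its part in connective tissue, went from 37.3 ± 2.01 to 39.2 ± 0.637 (limma adjusted p = 0.494). Slc39a14, which also carries iron and manganese, was at 20.9 ± 1.22 and 21.5 ± 0.619 and Slc39a9 at 10.2 ± 0.543 and 11.1 ± 0.498. Slc39a7, the ZIP7 channel of the endoplasmic reticulum, was at only 4.58 ± 0.866 and 5.16 ± 0.571, and 80.7% of its exon bases are shared with another gene. Slc39a12 was listed at 0 throughout, and Slc39a2, Slc39a4 and Slc39a5 stayed under 1.

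Of the 10 ZnT exporters, 6 passed the filter and they did not share a direction. The median log2 difference was 0.03, with 3 above 0 and 3 below. Limma called 0 of the 6, limma-voom on recovered reads called 0, and 3 had an unadjusted p under 0.05, as did 17.2% of all genes tested. Slc30a4, the vesicular exporter ZnT4, was at 127, 118 and 109 in control and 130, 129 and 134 in VC, all above control (log2 difference 0.15, SE 0.057, limma adjusted p = 0.253). Its control values fall in a wide range, lowest in control replicate 3. Slc30a5, which with Slc30a6 loads zinc into enzymes of the secretory pathway, was at 29.4, 30.2 and 29.8 in control and 27.2, 26.0 and 26.6 in VC, all below control (log2 difference -0.16, SE 0.039, limma adjusted p = 0.123). Slc30a6 itself lay on the other side, at 24.4 ± 1.299 and 25.9 ± 0.499. Slc30a9, a zinc transporter of mitochondria, went from 19.1 ± 0.907 to 17.2 ± 0.337 (limma adjusted p = 0.238), and Slc30a7, of the Golgi, from 15.1 ± 0.681 to 16.4 ± 0.552. VC values were all below control for 2 of the 6 exporters (11.6% of genes tested) and all above for 3 (13.9%). The groups overlapped for 1 of the 6. Over all genes tested, 25.6% had groups that did not overlap, in either direction. Slc30a3 of neurons, Slc30a8 of pancreatic beta cells and the manganese exporter Slc30a10 were listed at 0 in every library. The summed level of the 6 exporters was 222, 212 and 198 in control and 220, 219 and 225 in VC, with overlapping ranges.

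**Figure D4:**
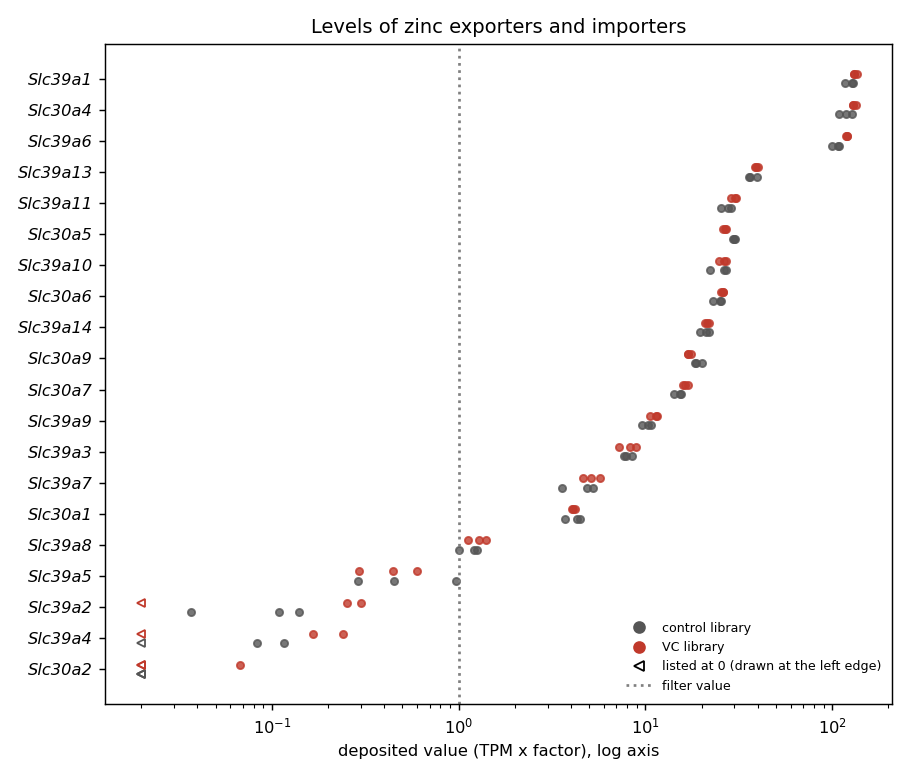
Levels of ZnT exporters (Slc30a) and ZIP importers (Slc39a) in each library on a log axis; grey points are control and red points VC libraries, open triangles at the left edge are values of 0, and the dotted line marks the filter value of 1. Slc39a1, Slc30a4 and Slc39a6 stand above the others, all over 100 in each library.

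In level, Slc39a1 and Slc30a4 could not be separated, since their ranges overlapped in both groups. Slc39a6 followed below both of them in each group, though in control its highest value, 109.1, all but met the lowest of Slc30a4, 109.2. The next transporter, Slc39a13, reached at most 39.95 in any library, so these 3 genes stood well apart from the rest. By its mean Slc30a1 was the lowest transporter that passed the filter except Slc39a8, which was at 1.16 ± 0.137 and 1.27 ± 0.147.

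Other genes of zinc handling showed no call. Of the 8 genes found, 5 passed the filter, limma called 0, limma-voom on recovered reads called 0, and 0 had an unadjusted p under 0.05. Trpm7, a channel-kinase that passes zinc and magnesium, was at 41.7, 40.3 and 32.9 in control and 43.1, 43.4 and 44.7 in VC, with control replicate 3 well below all others (limma adjusted p = 0.312). Cbwd1, a metallochaperone that hands zinc to an aminopeptidase, was at 39.8 ± 1.41 and 42.7 ± 2.52. S100a6, a calcium- and zinc-binding protein, was by far the most abundant of this list, at 2339 ± 207 and 2281 ± 20.4, and the zinc receptor Gpr39 was at 5.70 ± 0.462 and 5.32 ± 0.464. Tmem163 and S100a9 were listed at 0.

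**Figure D5:**
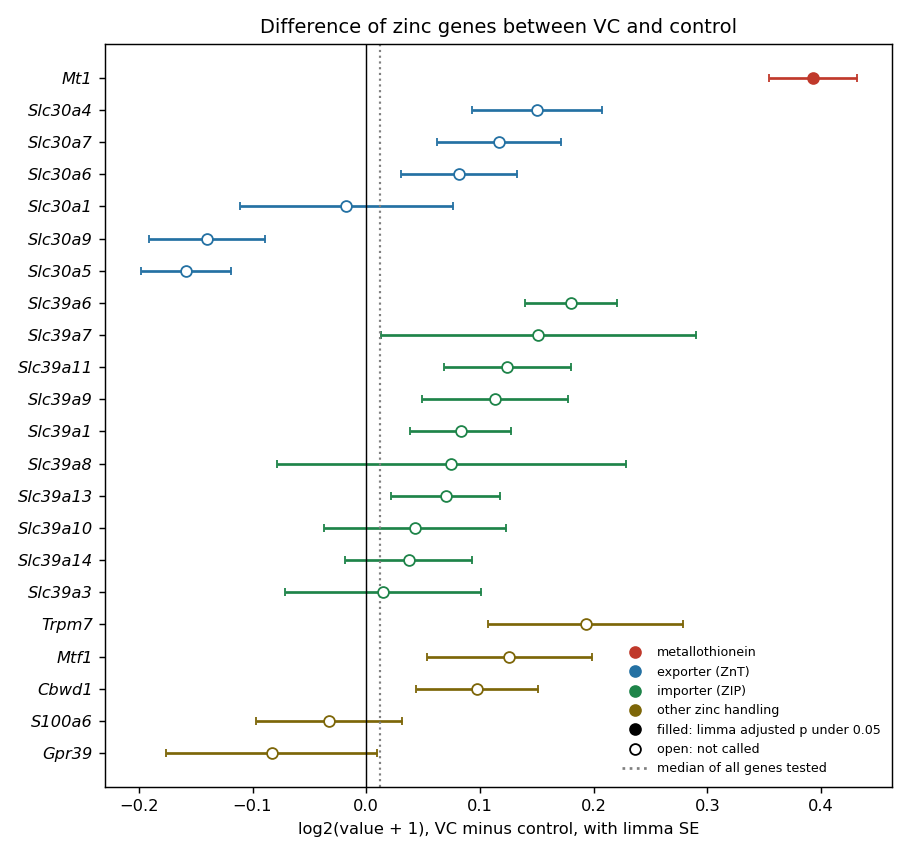
Log2 difference between VC and control with its limma SE (x axis) for each zinc gene that passed the filter, coloured by family; filled points passed the adjusted threshold and the dotted line is the median of all genes tested. Mt1 at 0.39 is the one filled point; all 10 ZIP importers lie right of 0 and the ZnT exporters lie on both sides.

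Genes linked to MTF1 in the literature on metal response did not move in 1 direction. Of 9 genes 7 passed the filter; besides Mt1, which chose the set, limma called Csrp1 lower (36 genes, or 0.258% of those tested, were called lower). Csrp1, a LIM-domain protein of the actin cytoskeleton, was at 173, 173 and 179 in control and 136, 146 and 137 in VC. It fell by 0.33 on the log2 scale (SE 0.039, limma adjusted p = 0.0293), and its call was lost in 8 of 15 alternatives, among them leaving out any library but control replicate 3. Ndrg1, a stress-responsive gene that low oxygen also induces, was at 14.4, 15.4 and 15.7 in control and 20.25, 18.25 and 20.02 in VC, all above control (log2 difference 0.34, SE 0.060, limma adjusted p = 0.0633). The selenoprotein Selenow, at 165 ± 16.7 and 160 ± 14.1, and Gclc, the catalytic subunit of glutathione synthesis, at 33.0 ± 2.82 and 31.9 ± 0.487, overlapped between groups. The iron exporter Slc40a1 reached at most 0.187. The median of the 7 measured genes was -0.02. The list was not split by the direction in which MTF1 acts on each gene, and it holds the repressed Slc39a10. Nothing about MTF1 is therefore read from the median or the mixed directions.

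Metallothioneins also bind copper, and 14 of 18 copper-handling genes passed the filter. The median log2 difference was 0.09, and 5 of the 14 had an unadjusted p under 0.05, against 17.2% of all genes tested. VC values were all above control in 4 of them (13.9% of genes tested) and all below in 2 (11.6%). Limma called 1 of the 14, higher, where 0.429% of genes tested were called higher. That gene is Steap3, a metalloreductase of endosomes that acts on iron and copper, named after its value was seen; it was at 19.5, 18.5 and 18.5 in control and 25.69, 24.97 and 24.23 in VC, and rose by 0.39 (SE 0.047, limma adjusted p = 0.0293). Its call was lost in 9 of 15 alternatives, among them leaving out any 1 library. The copper chaperone Atox1 was at 199 ± 21.0 and 193 ± 9.03 and Ccs, which loads superoxide dismutase, at 39.1 ± 0.983 and 40.0 ± 0.672. Sod1, the copper-zinc superoxide dismutase, went from 57.4 ± 2.71 to 50.4 ± 1.26, all VC values below control (limma adjusted p = 0.126). Sod3 went from 15.47 ± 1.13 to 12.65 ± 0.269, also all below control (limma adjusted p = 0.117). Sco2, a copper chaperone of mitochondria, was listed at 0 in every library, and 91.8% of its exon bases are shared with another gene.

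The genes whose profile over the 6 libraries was most like that of Mt1, among 7553 named genes with a mean level of 10 or more, were Tmem41b, Acat2, Ppard, Cyp51 and Idi1. Pearson's r of their log2 levels with Mt1 was 0.99 for each over 6 libraries, and 93 genes were above 0.95. Acat2, a cytosolic thiolase, was at 161, 161 and 173 in control and 216, 213 and 217 in VC, 30.4% higher in the mean. Cyp51, the lanosterol demethylase, was at 128, 127 and 129 and at 168, 166 and 166. Idi1, the isopentenyl isomerase, was 27.0% higher, Tmem41b, a lipid scramblase of the endoplasmic reticulum, 13.7% higher and Ppard, a nuclear receptor for fatty acids, 13.0% higher. Their groups do not overlap, as those of 25.6% of genes tested do not; choosing genes by likeness to Mt1 over these libraries fixes that separation. No such list was drawn up for Mt2, which was at 0 in 4 libraries.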

How the data were processed

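Gene expression was measured by RNA sequencing from Trizol RNA and TruSeq libraries of TM4 cells, per the labels' protocols, in 3 control and 3 VC libraries. The submitters' processing notes name HISAT2 and GRCm39; the sources used here do not give the counting tool or the annotation. The authors deposited a signal per gene, never negative and scaled across libraries (TMM, by the table's name). Symbols (52081 of 55414 identifiers) and exon lengths (52133) came from GENCODE M21 on build GRCm38. Values times length were whole reads within 0.1 for 98.7% to 98.9% of values of up to 1000 reads.

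Genes reaching 1 in at least 3 libraries were kept, and log2(value + 1) was compared in limma 3.58.1 (R 4.3.3) as a two-sided test with a trend on intensity; p-values were adjusted over 13972 genes (Benjamini-Hochberg, threshold 0.05). The fit was tested on simulated data in which every library had the same spread. No library stood apart there as control replicate 3 does here, so the simulation does not cover that difference. Members and lists were chosen with earlier results of these data known. Named genes are the members, genes of the zinc and MTF1 lists past the threshold, up to 4 further genes per list with the highest mean level, and the 5 most like Mt1; other genes were named after their values were seen. Alternatives changed pseudocount, filter, scaling, trend, block, libraries and the use of recovered reads. Promoters came from RefSeq on GRCm38.p6. Tables and figures were made in Python 3.11.15 with pandas 2.3.3 and matplotlib 3.10.9.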

Additional observations from a re-analysis of the deposited data

How the results depend on the processing

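Limma called 96 genes in the whole table. The count was 30 with no filter, 183 with a filter of 5 or more, 217 with libraries scaled to equal totals (182 higher and 35 lower, or 83.9% higher against 62.5%), 6 with no intensity trend and 548 in limma-voom on recovered reads; quantile normalization called 82 higher and 32 lower (71.9% higher). Leaving out 1 library gave 0 to 82. With the replicate number as a block limma called 0 genes, with 2039 at an unadjusted p under 0.05. Deviations of same-numbered libraries from their group means correlated at r of -0.02, 0.01 and 0.02 over 8331 genes. Not every library correlated best with its own number. These deviations come from 3 libraries per group, and control replicate 3 stood apart. Whether same-numbered libraries shared a culture or a batch was not tested. Of the members, 1 was called in the reported fit, 0 with the block, 0 with no trend, 2 in limma-voom and 0 to 1 with a library left out. The metallothionein count of 1 became 0 with the block and with no trend, and 0 to 1 with a library left out. The MTF1-linked count of 2 became 3 with the filter of 5 or more, with equal totals and in limma-voom, 1 with no filter, 0 with the block and with no trend, and 0 to 2 with a library left out. The copper count of 1 became 0 with no filter, with the block, with no trend and with any library left out. Limma-voom called 1 importer and 5 mitochondrially encoded genes, and quantile normalization called 1 NRF2 gene, where the reported fit called 0. The cause of these changes was not tested. Slc30a1 was at 0.04 with equal totals, 0.005 without control replicate 1 and 0.025 without control replicate 2, within -0.083 to 0.025 over left-out libraries; it had no value with the filter of 5 or more. Slc39a10 was at -0.042 without control replicate 3, within -0.042 to 0.092 over left-out libraries. Mt1, Slc39a6, Slc39a1 and Mtf1 kept their direction in 17 alternatives each. Equal totals moved the median of all genes from 0.012 to 0.078.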

Other observations

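Of 11 genes of the glucocorticoid response 10 passed the filter, with a median log2 difference of 0.07; limma called 0, limma-voom on recovered reads called 0, and 4 had an unadjusted p under 0.05, as did 17.2% of all genes tested. In those 4 genes (Tsc22d3, Per1, Klf9 and Errfi1) all VC values lay above control, as in 13.9% of genes tested, and in 2 others all lay below. Tsc22d3, a glucocorticoid-induced leucine zipper protein, was at 5.15, 4.12 and 4.11 in control and 5.87, 5.95 and 5.32 in VC (limma adjusted p = 0.213). The clock gene Per1 was 16.3% higher in the mean (limma adjusted p = 0.231) and the transcription factor gene Klf9 13.1% higher (limma adjusted p = 0.227). Tsc22d3, Per1, Klf9 and Fkbp5 were named after their values were seen. The most abundant, Errfi1, an inhibitor of growth factor receptors, was at 379 ± 7.16 in control and 403 ± 3.20 in VC (SD, n = 3), all VC values above control (limma adjusted p = 0.218). The receptor gene Nr3c1, at 39.0 ± 4.36 and 41.95 ± 1.21, and Nfkbia, at 66.25 ± 3.85 and 69 ± 3.91, overlapped between groups. The part of these genes' inducers in the Mt1 difference was not tested. Of 13 NRF2 and oxidative stress genes, all of which passed the filter, limma called 0, limma-voom on recovered reads called 0, and 3 had an unadjusted p under 0.05 (Hmox1 and Nqo1 higher, Gclm lower), near the 17.2% of all genes tested. VC values were all above control in 3 of the 13 (13.9% of genes tested) and all below in 2 (11.6%). Hmox1, heme oxygenase, was at 147, 147 and 153 in control and 170, 155 and 172 in VC, all above control (limma adjusted p = 0.192). Prdx1, a peroxiredoxin, was at 331 ± 22.4 and 310 ± 2.84, all VC values below control (limma adjusted p = 0.408). The ferritin chains Ftl1, at 1142 ± 81.6 and 1212 ± 11.1, and Fth1, at 730.2 ± 54.2 and 718.5 (from 712.1 to 730), overlapped between groups.

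Of 17 genes of alkaline phosphatase and the carbonic anhydrase family 3 passed the filter. Limma called 0 and limma-voom on recovered reads 0, with 1 at an unadjusted p under 0.05. That gene, Car13, a cytosolic carbonic anhydrase, was at 24.32, 26.75 and 24.99 in control and 31.1, 27.1 and 30.7 in VC, all above control (limma adjusted p = 0.176). Car12, of the cell surface, was at 14.4 ± 1.58 and 16.1 ± 1.60 and the mitochondrial Car5b at 5.13 ± 0.248 and 5.77 ± 0.676.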
